A study of Mus musculus with 4 samples.

Results

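The BCL2 family genes that set the balance between survival and death at the mitochondrion were compared in AML c-Kit+ cells that carried a control vector or overexpressed Suv39h1 (SUV-OE). The set held 10 genes, listed by symbol, of the 23552 genes in the FPKM table, and the Ensembl ID of 1 row matched each symbol. Pro-survival members were Bcl2, Bcl2l1 (BCL-XL) and Mcl1. Pro-death members were the effectors Bax and Bak1 and the BH3-only genes Bcl2l11 (BIM), Bid, Bad, Bbc3 (PUMA) and Pmaip1 (NOXA). The rule that picks their rows uses symbols and no measured value, although the symbols were listed with earlier results of these data known. All 10 were among the 13736 genes tested, whose mean over the 4 libraries reached 0.5 FPKM.

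The cells were c-Kit+ leukemic cells from the bone marrow of moribund C57BL/6 mice with AML driven by the MLL-AF9 fusion. Control cells overexpressed eGFP from a control vector, and SUV-OE cells overexpressed Suv39h1, a histone H3K9 methyltransferase, from a vector that also carried eGFP. Both groups thus shared the MLL-AF9 fusion, the eGFP vector and growth in sublethally irradiated 8-week-old female C57BL/6J recipients, and neither group was a deletion of Suv39h1. The vector and not the endogenous promoter drove Suv39h1, and neither the labels nor the methods tie each library to an animal or say whether animals were pooled. There were 2 RNA-seq libraries per group, control replicates 3 and 4 and SUV-OE replicates 2 and 3, all from RNA-seq batch 2. The p-values therefore measure the spread between these libraries only.

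BAX and BAK1 open the outer mitochondrial membrane, which releases cytochrome c and starts the caspase cascade. The pro-survival proteins hold them in check, and BH3-only proteins relieve that check or activate the effectors directly. Blood cells and AML cells are known to depend strongly on MCL1 and BCL2, and BCL2 is the target of venetoclax. Much of the regulation in this family is of protein turnover, phosphorylation or cleavage, which transcript levels do not show.

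The members share a short helix, the BH3 domain, by which one family member binds another. Its core is a leucine, 3 residues of varied kind, a small residue and then aspartate. The mouse coding sequence of this core is shown for 9 members because it is the part that all of them hold in common. Pmaip1, in which the pattern matched at 2 places, is not shown. Each line runs 5′ to 3′ on the coding strand of mm10 with the longest coding transcript of GENCODE M21, and the capitals mark the leucine codon and the codons of the small residue and aspartate.
Bcl2 (exon 1, minus strand, chr1:106712578-106712607): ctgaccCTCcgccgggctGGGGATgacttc
Bcl2l1 (exon 2, minus strand, chr2:152829700-152829729): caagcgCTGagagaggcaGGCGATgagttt
Mcl1 (exon 1, plus strand, chr3:95659430-95659459): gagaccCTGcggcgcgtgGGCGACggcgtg
Bax (exon 3, minus strand, chr7:45466000-45466029): gagtgtCTCcggcgaattGGAGATgaactg
Bak1 (exon 4, minus strand, chr17:27022534-27022563): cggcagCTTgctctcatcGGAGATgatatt
Bcl2l11 (exon 3, plus strand, chr2:128147144-128147173): caggagCTGcggcggatcGGAGACgagttc
Bid (exon 4, minus strand, chr6:120897292-120897321): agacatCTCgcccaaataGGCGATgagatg
Bad (exon 3, plus strand, chr19:6950786-6950815): cgtgagCTCcgaaggatgAGCGATgagttt
Bbc3 (exon 3, plus strand, chr7:16313767-16313796): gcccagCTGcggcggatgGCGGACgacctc
The small residue is glycine in Bcl2, Bcl2l1, Mcl1, Bax, Bak1, Bcl2l11 and Bid, serine in Bad and alanine in Bbc3. The pattern, a leucine, any 3 residues, a glycine, alanine or serine and then aspartate, was found in all 10 members but also in 34.0% of 21562 coding genes, so a match alone does not mark a BH3 domain.

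The table recovered to 20085762 to 23561149 reads per library, and Suv39h1 was at 12.4 and 12.4 FPKM in control and 75.3 and 81.2 FPKM in SUV-OE (log2 fold change 2.56, adjusted p = 0.00866 by limma). Kit, the sorted marker, was at 20.4 and 19.2 FPKM in control and 28.6 and 25.4 FPKM in SUV-OE (limma adjusted p = 0.160). All 8 marker genes of c-Kit+ MLL-AF9 leukemic cells were detected in every library. They summed to 711 to 719 FPKM in control and 660 to 726 FPKM in SUV-OE. The SUV-OE range lay wholly above the control range for 2 of them (Kit and Meis1) and wholly below for 3 (Hoxa9, Hoxa10 and Mpo). Markers of other cells were summed in the same way. Of all tested genes, 25.4% had the SUV-OE range wholly above the control range and 28.4% wholly below. Neutrophil markers (10 of 10 with the SUV-OE range wholly above the control range, none at 0 in a whole group) were at 754 to 2392 FPKM in control and 6658 to 8106 FPKM in SUV-OE. B-lineage markers (8 of 10 above) summed to 19.6 and 29.3 FPKM in control and 45.0 and 108 FPKM in SUV-OE replicates 2 and 3. Without Cd79b, which made up most of the control sum, they summed to 2.2 and 4.29 FPKM in control and 27.9 and 84.4 FPKM in SUV-OE. Erythroid markers (6 of 10 above, 1 below) summed to 37.7 to 143 FPKM in control and 113 to 138 FPKM in SUV-OE. Monocyte and macrophage markers (8 of 9 tested above, 1 below) summed to 372 to 661 FPKM in control and 388 to 421 in SUV-OE. Without Hba-a1 and Hbb-bs the erythroid sum was 27.4 and 31.8 FPKM in control and 63.4 and 61.2 FPKM in SUV-OE. Without Ly6c2, which was at 281 and 545 FPKM in control and 229 and 269 FPKM in SUV-OE, the monocyte and macrophage sum was 90.7 and 116 FPKM in control and 159 and 152 FPKM in SUV-OE. The genes left out of these sums were chosen after their values were seen. T and NK cell markers summed to at most 2.94 FPKM in any library, with Cd8a and Ncr1 at 0 in both control libraries. Control replicate 3 was the highest library in 6 of 6 immediate-early genes (Fos, Fosb, Jun, Egr1, Dusp1 and Ier2), which cells switch on within minutes of a stimulus and which were chosen after their values were seen. Fos was at 260 and 30.5 FPKM in control replicates 3 and 4 and at 15.4 and 45.0 FPKM in SUV-OE replicates 2 and 3. SUV-OE replicate 3 came nearer to control replicate 3 for Egr1, at 64.1 and 10.3 FPKM in control and 11.9 and 47.1 FPKM in SUV-OE, and for Ier2, at 204 and 78.1 FPKM in control and 75.2 and 126 FPKM in SUV-OE. In bulk samples, a different share of a cell type and a different amount of RNA per cell cannot be told apart.

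Of the 10 members, 0 passed the thresholds of the test (adjusted p under 0.05 and a log2 fold change of at least 1 in size, by limma on log2(FPKM + 1)), where 1.22% of all tested genes did. At an unadjusted p under 0.05, limma placed 1 member higher in SUV-OE (Bcl2) and 2 lower (Bid and Bad), against 10.3% and 10.4% of all tested genes. limma-voom on reads recovered from the FPKM called 1 member, Bcl2, against 3.62% of all genes called higher and 4.72% called in either direction. Those 673 called genes became 77 without control replicate 3 and 507 to 584 without another library. The groups did not overlap for 5 of the 10 members, against 53.9% of all tested genes. The SUV-OE range lay wholly above the control range for 2 members, Bcl2 and Bcl2l11, and wholly below it for 3, Bax, Bid and Bad. Among all tested genes 25.4% lay above and 28.4% below, so these counts are near the background.

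**Figure D1:**
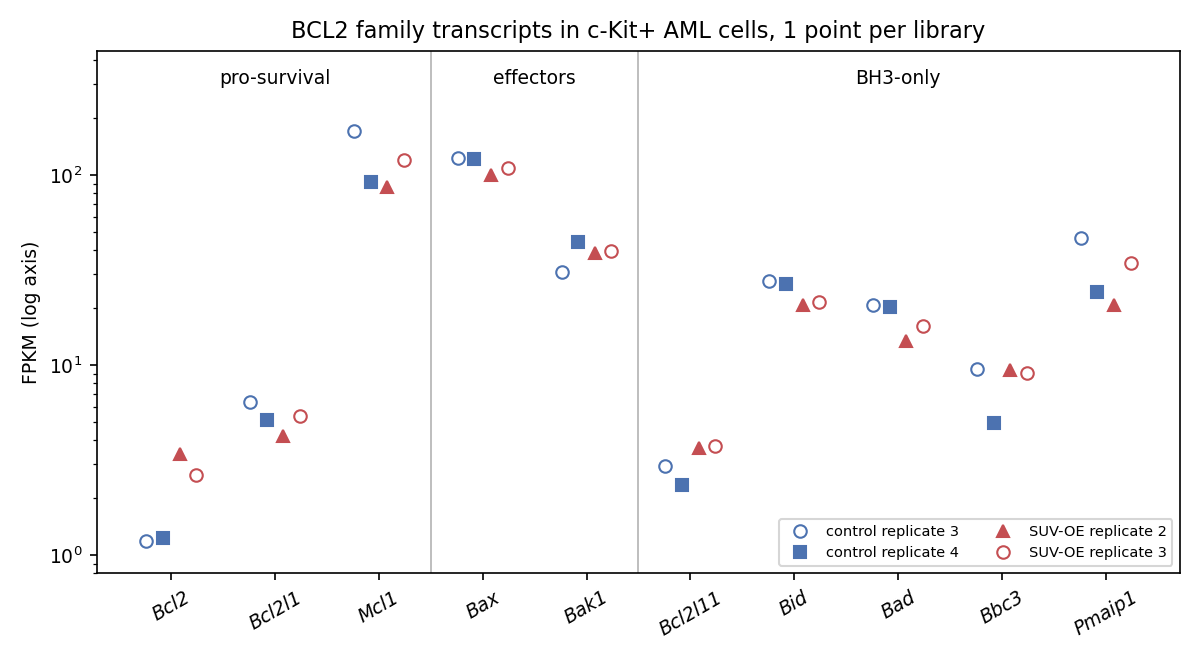
FPKM (log axis) of each of the 10 BCL2 family members in the 4 libraries, with 1 point per library and members grouped as pro-survival, effectors and BH3-only. Bcl2, at 1.18 and 1.23 FPKM in control and 3.41 and 2.62 FPKM in SUV-OE, shows the widest separation of the groups, while Mcl1, Bbc3 and Pmaip1 show a wide gap between the control libraries.

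Bcl2, the founding pro-survival gene, was the least abundant member in both groups. It was at 1.18 and 1.23 FPKM in control replicates 3 and 4 and at 3.41 and 2.62 FPKM in SUV-OE replicates 2 and 3. The SUV-OE range lay wholly above the control range, and the ratio of the group means was 2.5. In reads, this was 210 and 190 against 554 and 427. On the log2(FPKM + 1) scale, which understates the change of low genes, the log2 fold change was 0.86 (SE 0.16, 95% interval 0.44 to 1.28, limma adjusted p = 0.0920). limma-voom on the recovered reads gave 1.31 (SE 0.21, 95% interval 0.83 to 1.8) with an adjusted p of 0.018, past both thresholds. With 1 library left out at a time, so that the lone library of a group was assumed to vary like the others, limma-voom kept this call only without SUV-OE replicate 3 (adjusted p = 0.00721). Its adjusted p was 0.0906 without control replicate 3, 0.0576 without control replicate 4 and 0.0591 without SUV-OE replicate 2, with log2 fold changes of 1.12 to 1.5 over the 4 fits. The gap between the control libraries was at percentile 8.18 of all tested genes, and that between the SUV-OE libraries at percentile 80.9. The level of Bcl2 was at percentile 17.2 of tested genes in control and 31.6 in SUV-OE. Summed B-lineage and neutrophil markers were also higher in both SUV-OE libraries than in control. Over all listed markers, the erythroid sums overlapped (37.7 and 143 FPKM in control, 138 and 113 FPKM in SUV-OE). So did the monocyte and macrophage sums (372 and 661 FPKM in control, 388 and 421 FPKM in SUV-OE). These sums were higher in both SUV-OE libraries once Hba-a1 and Hbb-bs, or Ly6c2, were left out, a choice made after the values were seen. Within SUV-OE, the B-lineage, neutrophil and full monocyte and macrophage sums were higher in replicate 3. Bcl2 and the full erythroid sum were higher in replicate 2, as were the erythroid and monocyte sums with those genes left out. The part of those cells in the level of Bcl2 was not tested.

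Bcl2l1 encodes BCL-XL, which guards platelets and red cell precursors in particular. It was at 6.4 and 5.16 FPKM in control and 4.23 and 5.41 FPKM in SUV-OE, and the groups overlapped. The log2 fold change was -0.22 (SE 0.17, 95% interval -0.66 to 0.22, limma adjusted p = 0.513), and the interval covers both directions. With 1 library left out it ranged from -0.37 (without SUV-OE replicate 3) to -0.075 (without SUV-OE replicate 2), and it was -0.089 without control replicate 3.

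Mcl1 encodes a short-lived protein needed by myeloid and stem cells. It was at 171 FPKM in control replicate 3, 92.2 FPKM in control replicate 4, 85.9 FPKM in SUV-OE replicate 2 and 119 FPKM in SUV-OE replicate 3. The groups overlapped, since SUV-OE replicate 3 was above control replicate 4. The log2 fold change was -0.31 (SE 0.35, 95% interval -1.21 to 0.59, limma adjusted p = 0.651). Its gap between control libraries, 0.88 on the log2(FPKM + 1) scale, was at percentile 94.7 of all tested genes, whose median gap was 0.22. Under quantile normalization the log2 fold change of Mcl1 was -0.13. Without control replicate 3 it was 0.13, in the other direction.

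**Figure D2:**
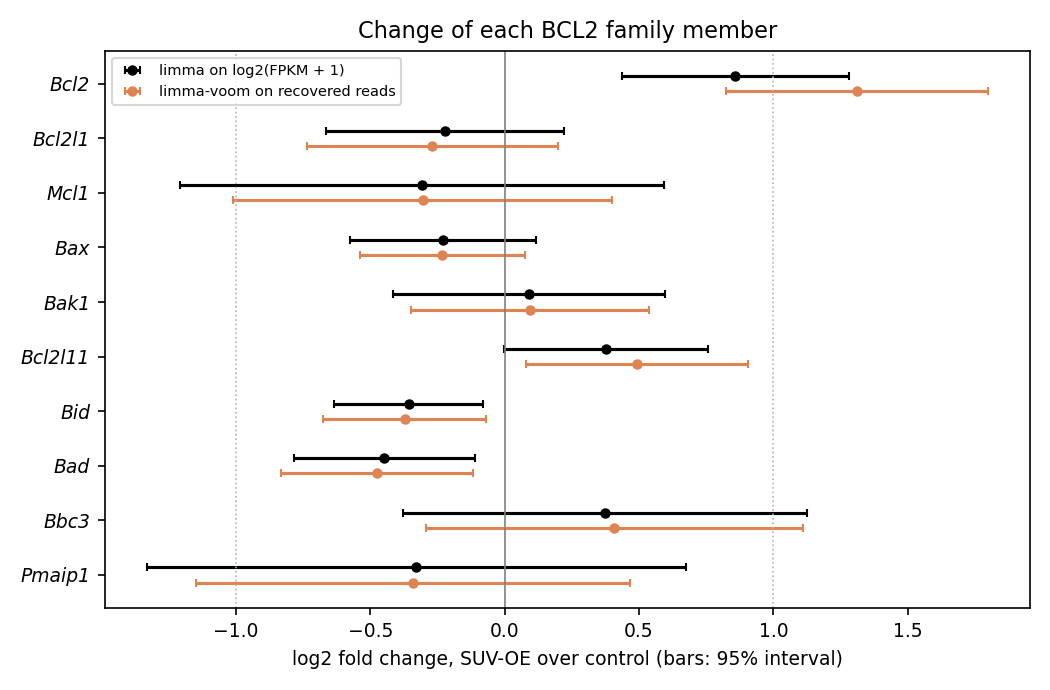
Log2 fold change of each member, SUV-OE over control, with its 95% interval as a bar, by limma on log2(FPKM + 1) in black and by limma-voom on recovered reads in orange, with dotted lines at the threshold of 1 in size. Of the points, only Bcl2 under limma-voom, at 1.31, lies beyond a dotted line, and the intervals of Mcl1 and Pmaip1 are the widest.

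Bax, whose protein moves from the cytosol to the mitochondrion to open it, was the most abundant pro-death member. It was at 123 and 121 FPKM in control and 99.5 and 109 FPKM in SUV-OE. SUV-OE lay wholly below control. Its log2 fold change was -0.23 (SE 0.13, 95% interval -0.58 to 0.12, limma adjusted p = 0.395), and -0.026 under quantile normalization. Bak1, whose protein already sits in the mitochondrial membrane, was at 30.8 and 44.1 FPKM in control and 38.8 and 39.9 FPKM in SUV-OE. The SUV-OE libraries lay between the control libraries, and the log2 fold change was 0.09 (SE 0.19, 95% interval -0.42 to 0.60, limma adjusted p = 0.821). The log2 fold change of Bak1 was 0.23 under quantile normalization, and its sign turned without control replicate 3 (-0.16).

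Among BH3-only genes, Bcl2l11 encodes BIM, which binds all pro-survival proteins and is a main killer of blood cells deprived of cytokine. It was at 2.95 and 2.33 FPKM in control and 3.66 and 3.76 FPKM in SUV-OE. SUV-OE lay wholly above control, as for Bcl2. Its log2 fold change was 0.38 (SE 0.15, 95% interval -0.0041 to 0.76, limma adjusted p = 0.245), and limma-voom gave 0.49 with an adjusted p of 0.146.

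Bid, which caspase-8 cleaves to link death receptors to the mitochondrion, was at 27.8 and 26.8 FPKM in control and 20.7 and 21.5 FPKM in SUV-OE. SUV-OE lay wholly below control. For Bid the log2 fold change was -0.36 (SE 0.11, 95% interval -0.64 to -0.08), with an unadjusted p of 0.0216 and an adjusted p of 0.173 by limma. Bad, whose protein binds BCL2 and BCL-XL when growth factor signals do not hold it phosphorylated, was at 20.5 and 20.2 FPKM in control and 13.4 and 16.0 FPKM in SUV-OE. These groups did not overlap either, with SUV-OE below. For Bad the log2 fold change was -0.45 (SE 0.13, 95% interval -0.79 to -0.11), with an unadjusted p of 0.0191 and an adjusted p of 0.165 by limma.

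Bbc3 and Pmaip1 encode PUMA and NOXA, both targets of p53. Bbc3 was at 9.55 and 4.93 FPKM in control and 9.37 and 9.10 FPKM in SUV-OE. Control replicate 4 was thus low and control replicate 3 level with SUV-OE. The log2 fold change of Bbc3 was 0.37 (SE 0.29, 95% interval -0.38 to 1.12, limma adjusted p = 0.517) and -0.043 without control replicate 4. Pmaip1 was at 46.6 and 24.3 FPKM in control and 20.7 and 34.2 FPKM in SUV-OE. Each group held a high and a low library, so the groups overlapped. The log2 fold change of Pmaip1 was -0.33 (SE 0.39, 95% interval -1.33 to 0.67, limma adjusted p = 0.665). Without control replicate 3 it was 0.13, and without SUV-OE replicate 2 it was 0.021.

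**Figure D3:**
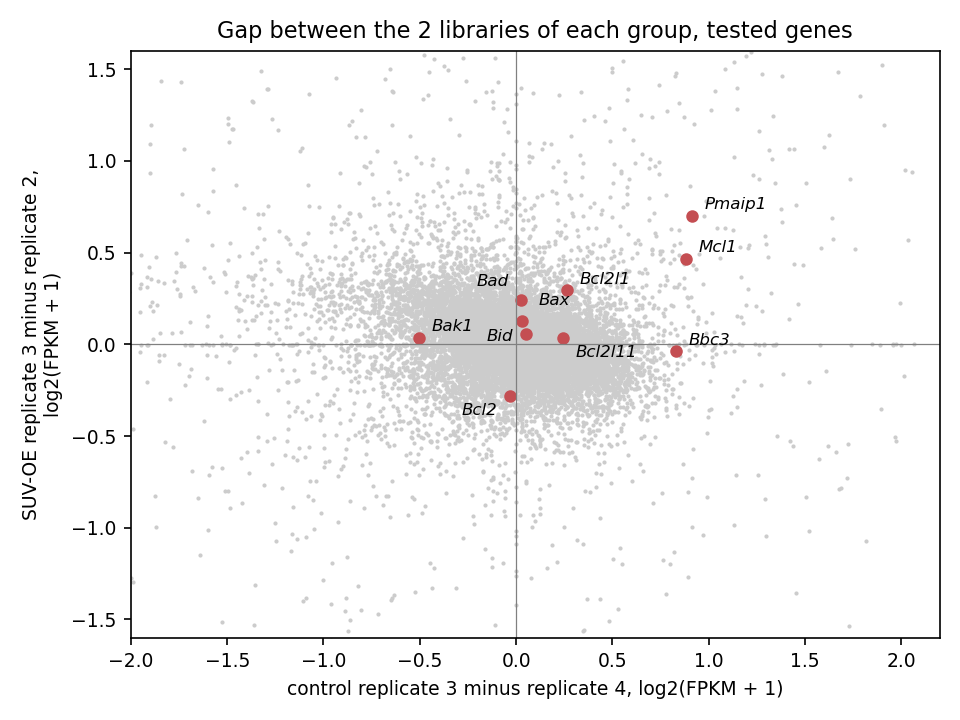
Difference in log2(FPKM + 1) between the control libraries (x axis, replicate 3 minus replicate 4) and between the SUV-OE libraries (y axis, replicate 3 minus replicate 2) for the tested genes in grey, of which 133 lie outside the axes, and the members in red. Mcl1 and Pmaip1 lie far out in both directions, Bbc3 in the control direction alone, and Bcl2 near 0 on the control axis.

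The spread between libraries of a group differed widely among the members. The control libraries differed by 0.91 for Pmaip1, 0.88 for Mcl1 and 0.83 for Bbc3 on the log2(FPKM + 1) scale, at or above percentile 93.9 of all tested genes. Control replicate 3 was the higher library in all of these members. By contrast, the control libraries differed by 0.03 for Bcl2 and 0.03 for Bax. The SUV-OE libraries differed by 0.70 for Pmaip1 and 0.47 for Mcl1, at percentiles 96.2 and 92.3, and by 0.04 for Bbc3. Immediate-early genes followed the same order of libraries within control, with Jun at 278 FPKM in control replicate 3 and 22.4 FPKM in control replicate 4, and at 6.49 and 31.4 FPKM in SUV-OE replicates 2 and 3. Dusp1 was at 311 and 35.2 FPKM in control and 10.4 and 26.9 FPKM in SUV-OE. Whether the difference in those genes has a part in the levels of Mcl1, Pmaip1 and Bbc3 was not tested.

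Levels can be set side by side because FPKM is per length. In control the order from high to low was Mcl1, Bax, Bak1, Pmaip1, Bid, Bad, Bbc3, Bcl2l1, Bcl2l11 and Bcl2. The ranges of Mcl1 and Bax, of Bak1 and Pmaip1, of Pmaip1 and Bid, and of Bbc3 and Bcl2l1 overlapped, so these neighbours did not differ beyond their spread. In SUV-OE Bax came before Mcl1 and the rest of the order was the same, with overlap between Bax and Mcl1 and between Pmaip1 and Bid. Mcl1 made up 93.5% to 95.8% of the summed pro-survival FPKM in control and 91.8% to 93.7% in SUV-OE. Bax made up 47.2% to 49.7% of the summed pro-death FPKM in control and 46.6% to 48.3% in SUV-OE.

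The sides were also compared by their sums. Summed pro-survival FPKM over summed pro-death FPKM was 0.682 and 0.405 in control replicates 3 and 4 and 0.454 and 0.546 in SUV-OE replicates 2 and 3. Both SUV-OE values lay between the control values. Without Mcl1 and Bax, the most abundant member of each side, the ratio was 0.0548 and 0.0521 in control libraries, against 0.0716 and 0.0646 in SUV-OE, and the groups did not overlap. The median log2 fold change was -0.22 for the 3 pro-survival members and -0.23 for the 7 pro-death members, against -0.022 for all tested genes. Under quantile normalization the pro-survival median was -0.13 and the pro-death median -0.026. Neither median describes a shared direction, since 1 of 3 pro-survival members and 3 of 7 pro-death members had a positive log2 fold change. Without control replicate 3 the pro-survival median was 0.13, and without SUV-OE replicate 2 the pro-death median was 0.021.

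Ratios of single pairs differed in how steady they were. Bax over Bcl2 in FPKM was 105 and 98.3 in the control libraries, against 29.2 and 41.4 in SUV-OE, and the groups did not overlap. Bcl2l11 over Bcl2 was 2.5 and 1.90 in the control libraries, against 1.07 and 1.43 in SUV-OE, without overlap. Both ratios have Bcl2 as the divisor, so they share its change and are not separate results. Mcl1 over Pmaip1, whose products bind each other, was 3.67 and 3.79 in the control libraries, against 4.16 and 3.48 in SUV-OE. That ratio was close to even across libraries in which Mcl1 ranged from 85.9 to 171 FPKM and Pmaip1 from 20.7 to 46.6 FPKM. Mcl1 over Bcl2 was 145 and 75.0 in the control libraries, against 25.2 and 45.4 in SUV-OE. These pairs were chosen after the values were seen, so the ratios are a description.

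**Figure D4:**
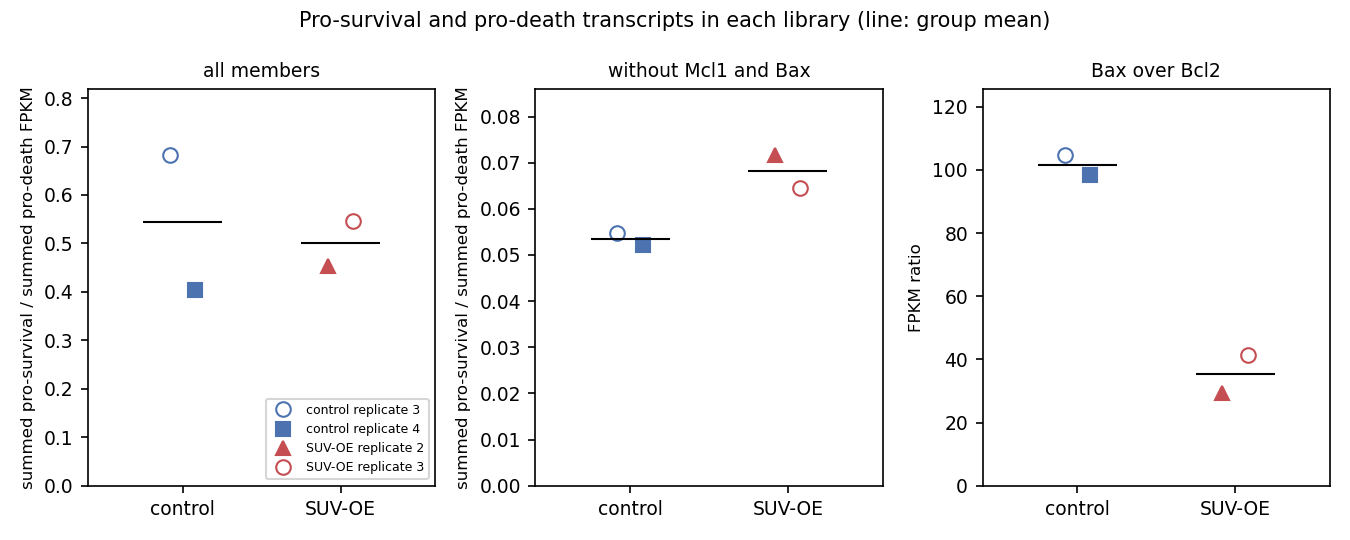
Ratio of summed pro-survival to summed pro-death FPKM with all members (left) and without Mcl1 and Bax (middle), and the FPKM ratio of Bax over Bcl2 (right), with 1 point per library and the group mean as a line. The groups overlap on the left, where control spans 0.405 to 0.682, and are apart in the middle and on the right, where Bax over Bcl2 is 98.3 or more in control and 41.4 or less in SUV-OE.

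The other BCL2 homologues gave no call by limma. Bcl2l2 (BCL-W), a pro-survival gene, was at 5.74 and 6.80 FPKM in control and 8.51 and 7.61 FPKM in SUV-OE, with SUV-OE above (log2 fold change 0.32, SE 0.14, limma adjusted p = 0.275). Bcl2a1a was at 1.13 and 2.75 FPKM in control and 1.44 and 1.17 FPKM in SUV-OE, and Bcl2a1d at 0.596 and 1.17 FPKM in control and 1.11 and 0.456 FPKM in SUV-OE. The Bcl2a1 genes are near-identical copies that can share reads, so both values are uncertain.

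Among pro-death homologues, Bok, a relative of Bax and Bak1, was at 1.59 and 1.74 FPKM in control and 0.582 and 0.581 FPKM in SUV-OE. SUV-OE lay wholly below control. Its log2 fold change was -0.75 (SE 0.15, limma adjusted p = 0.0995), and limma-voom gave -1.49 (SE 0.35) with an adjusted p of 0.0543. Bmf, a BH3-only gene, was at 0.959 and 0.936 FPKM in control and 1.81 and 1.49 FPKM in SUV-OE (log2 fold change 0.44, limma adjusted p = 0.214), with SUV-OE above, as for Bcl2l11. Bnip3 and Bnip3l, mitochondrial proteins with a role in mitophagy, had SUV-OE below, with log2 fold changes of -0.23 and -0.24 and limma adjusted p-values of 0.378 and 0.292. Of the BCL2-like genes, Bcl2l12, Bcl2l13 and Bcl2l14 had log2 fold changes of -0.13, -0.048 and -0.34, with limma adjusted p-values of 0.692, 0.887 and 0.379. Bcl2a1b, Bik, Hrk and Bcl2l15 were under the filter on low values.

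Of 52 other apoptosis genes listed, 51 were in the table and 47 were tested. limma called 0 of them past both thresholds, against 1.22% of all tested genes, with 20 higher and 27 lower by sign. At an unadjusted p under 0.05 limma placed 4 higher and 5 lower, against 10.3% and 10.4% of all tested genes. SUV-OE lay wholly above control for 9 genes and wholly below for 13, against 25.4% and 28.4% of all tested genes. Their median log2 fold change was -0.048. limma-voom called 1 of 48, Pim1, against 4.72% of all genes.

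Downstream of the mitochondrion, 13 release and caspase genes split into 2 higher and 11 lower by sign, with a median of -0.12, and for 5 of them SUV-OE lay wholly below control. Of all tested genes, 7278 of 13736 were lower by sign and 28.4% lay wholly below. Endog, a mitochondrial nuclease, had the largest log2 fold change of that list. It was at 8.70 and 5.85 FPKM in control and 3.98 and 3.33 FPKM in SUV-OE (-0.81, SE 0.21, limma adjusted p = 0.142). The groups did not overlap. Among 4 inhibitors of apoptosis, 3 were higher and 1 lower by sign. Birc5 (survivin), which also works in cell division, was at 18.1 and 19.5 FPKM in control and 14.6 and 14.3 FPKM in SUV-OE (log2 fold change -0.35, SE 0.11, limma adjusted p = 0.180).

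In the death receptor arm 4 of 8 genes were higher and 4 lower by sign, with a median of 0.0064. Fas, the receptor for FAS ligand, was at 3.14 and 3.69 FPKM in control and 5.01 and 4.84 FPKM in SUV-OE (log2 fold change 0.43, SE 0.13, limma adjusted p = 0.179), with SUV-OE above. Of 12 upstream regulators, 9 were higher and 3 lower by sign, against 6458 of 13736 tested genes higher by sign. The groups overlapped for 8 of the 12 regulators. Pim1, a kinase that phosphorylates BAD, was at 8.75 and 6.92 FPKM in control and 16.1 and 15.9 FPKM in SUV-OE. The groups did not overlap. The log2 fold change of Pim1 was 0.95 (SE 0.14, adjusted p = 0.0646) by limma and 1.04 (adjusted p = 0.0184) by limma-voom. limma-voom kept that call only without SUV-OE replicate 3 (1.04, adjusted p = 0.0449) and lost it without control replicate 3 (1.21, adjusted p = 0.0584), without control replicate 4 (0.87, adjusted p = 0.0431) and, by a narrow margin, without SUV-OE replicate 2 (1.03, adjusted p = 0.05001).

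Trp53 and its target Mdm2, regulators upstream of Bbc3, Pmaip1 and Bax, overlapped between the groups. Trp53 was at 43.0 and 33.5 FPKM in control and 42.5 and 38.6 FPKM in SUV-OE (log2 fold change 0.09, limma adjusted p = 0.781). Mdm2 was at 17.3 and 14.4 FPKM in control and 17.3 and 17.2 FPKM in SUV-OE (log2 fold change 0.12, limma adjusted p = 0.642).

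**Figure D5:**
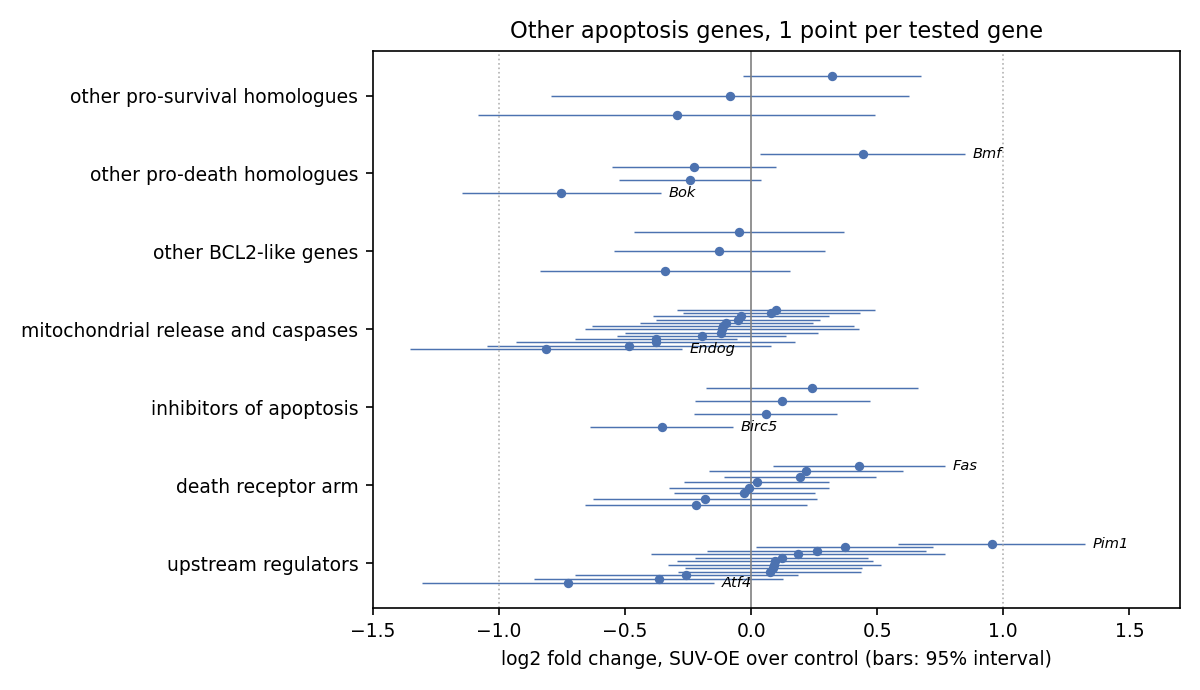
Log2 fold change, SUV-OE over control, with its 95% interval, for the 47 tested other apoptosis genes by limma on log2(FPKM + 1), in 7 lists, with dotted lines at the threshold of 1 in size. Pim1 at 0.95 and Endog at -0.81 lie farthest from 0, and no point reaches a dotted line.

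Several members share exon bases with a neighbour on the other strand, and the library kit does not mark strand, so reads there cannot be assigned to 1 gene. Bad shares 524 bases with Gpr137, Bid 628 bases with Bcl2l13, Bak1 437 bases with Ggnbp1 and Bcl2 558 bases with D630008O14Rik. Gpr137 was at 8.80 and 8.44 FPKM in control and 8.77 and 10.3 FPKM in SUV-OE, and these groups overlapped. D630008O14Rik was at most 0.0548 FPKM in any library. Bax shares 192 bases with Gm45808 on the same strand, which was not analysed here.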

How the data were processed

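RNA-seq libraries (TruSeq RNA v2, paired-end, HiSeq) were analysed from 1 deposited table of FPKM, which per the labels and the study's methods the authors made with CASAVA 1.8, TopHat2 and mm10. Cufflinks is named for the FPKM, and the annotation release is not given in the sources used here. Of 23438 genes matched to GENCODE M21, 18498 (78.92%) were whole reads at their exon length in all 4 libraries within 0.01 read, and of the members 6 were (Bcl2, Bcl2l1, Mcl1, Bak1, Bcl2l11 and Bid). A count of 3 reads on 1 kb was worth 0.154 to 0.178 FPKM.

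limma 3.58.1 in R 4.3.3 was fitted with an intensity trend on log2(FPKM + 1), for the 13736 genes whose mean reached 0.5 FPKM, with Benjamini-Hochberg adjustment over all of them. Genes were called at an adjusted p under 0.05 with a log2 fold change of 1 or more in size. limma-voom was run on 14268 genes with a mean of at least 10 recovered reads, scaled to the total by which each library was divided. Values that were not whole were kept unrounded. Alternatives were another pseudocount, other filters, other scalings, no trend and leaving out each library.

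The members and lists were chosen with earlier results of these data known. The 10 members are named in full. Of the other apoptosis genes, every tested homologue, any called gene and, per list, the gene with the smallest p and that with the largest fold change are named, with Suv39h1, Kit, Trp53 and Mdm2.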

Additional observations from a re-analysis of the deposited data

How the results depend on the processing

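No paired analysis was possible because control and SUV-OE have a single replicate number in common. limma-voom scaled to total recovered reads and limma-voom with a library left out were added after seeing the data. Of 80 member values under 8 alternatives that kept all libraries, 0 reversed, 78 kept their direction and call and 2 became called, past both the adjusted p and the fold threshold, both for Bcl2 under limma-voom (1.31, and 1.41 scaled to total reads, which moved the limma-voom median of all genes from -0.013 to 0.083). With a pseudocount of 0.1, Bcl2 was at 1.25 in limma, past the fold threshold alone (adjusted p = 0.0930). Members called numbered 0 by limma under every alternative that kept all libraries and 1 under limma-voom in either scaling. Without a filter limma called 0 genes of the whole table, so the count of 0 members was fixed there. Other apoptosis genes called gave the same counts, 0 by limma and 1 under limma-voom in either scaling. Bcl2 ranged from 0.72 to 1.0 in limma with a library left out.

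The pro-survival median ranged from -0.37 to 0.13 with a library left out (limma-voom -0.45 to 0.13), and the pro-death median from -0.29 to 0.021 (limma-voom -0.30 to 0.024) and was -0.026 under quantile normalization. The log2 difference of the summed ratio was -0.078, 0.35 without the most abundant member of each side, and -0.45 to 0.30 with a library left out. With a library left out, 4 members reversed. The ranges were -0.75 to 0.13 for Mcl1, -0.16 to 0.34 for Bak1, -0.043 to 0.79 for Bbc3 and -0.79 to 0.13 for Pmaip1 (0.021 without SUV-OE replicate 2, 0.024 by limma-voom), and by limma-voom -0.76 to 0.13, -0.16 to 0.35, -0.048 to 0.90 and -0.81 to 0.13. The cause was not tested. Called genes overall numbered 168 by limma, 116 with a pseudocount of 0.1, 0 without a filter (4177 of 23552 at an unadjusted p under 0.05) or with any library left out (1146 to 3895 at an unadjusted p under 0.05). By limma-voom they numbered 673, 77 without control replicate 3 and 507 to 584 without any other library. With 2 libraries a group, differences as small as most of those listed could not be separated from the spread.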
